A study of Mus musculus with 11 samples.

Results

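MHC class I antigen presentation was described here in KP1 cells, a mouse small cell lung cancer (SCLC) line, through 10 genes of its core machinery: the heavy chains H2-K1 and H2-D1, the light chain B2m, the peptide transporter genes Tap1 and Tap2, the tapasin gene Tapbp, the transactivator Nlrc5 and the immunoproteasome genes Psmb8, Psmb9 and Psmb10. They were chosen by name, for their place in the pathway, out of 35056 genes to which reads were assigned. KP1 carries mutations of Rb and p53, belongs to the SCLC-A subtype and was grown in suspension in RPMI-1640. The bulk RNA sequencing libraries came from 2 untreated samples, called control replicates 2 and 3, and from 3 samples irradiated with 5 Gy and collected 24 h later, called irradiated replicates 1, 2 and 3. All 5 libraries therefore share the line and its mutations, and KP1 is a single line, here grown in culture without a host. The labels do not say whether the replicates were independent cultures, so p values measure only the spread between these libraries, which may be technical.

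Class I molecules show peptides from inside the cell to CD8+ T cells. Proteasomes cut proteins into peptides, and in cells exposed to interferon-γ the subunits encoded by Psmb8, Psmb9 and Psmb10 replace constitutive catalytic subunits. The TAP transporter, a pair of Tap1 and Tap2, moves peptides into the endoplasmic reticulum, where tapasin helps to load them onto a heavy chain bound to β2-microglobulin. Nlrc5 binds with RFX, CREB/ATF and NF-Y proteins to the SXY module of class I promoters. SCLC is known as a tumor type with low class I expression, and radiation is known to raise class I in several other cell types.

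The libraries held 21185956 to 31036317 estimated reads. Neuroendocrine markers matched the label: all 10 of those listed were expressed, with a summed level of 3070 to 3120 CPM (read counts scaled to a common library size with edgeR's TMM factors) in control and 3130 to 3460 in irradiated libraries. Leukocytes, whose class I and immunoproteasome levels are high, left little trace. The 11 leukocyte markers summed to 2.17 and 2.89 CPM in control and 1.27 to 1.51 in irradiated libraries. Cd68 had 21 and 51 reads in control and 24, 9 and 22 in irradiated libraries. Ptprc had 24 and 9, and 1, 8 and 5, and Tyrobp had 0 everywhere. The 6 fibroblast markers summed to 123 to 131 CPM in control and 95.3 to 122 in irradiated libraries, nearly all of it Pdgfra. Col3a1 had 0 reads, and Col1a1 had 33 and 2 reads in control and 6, 9 and 10 in irradiated libraries. The 3 endothelial markers summed to 1.58 and 2.03 CPM in control and 0.597 to 1.1 in irradiated libraries. Libraries also differed in which transcripts they sampled. The mean length of the transcripts that reads came from was 5463 and 4729 bases in the control libraries, against 3715, 3625 and 3998 in the irradiated ones.

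The 10 members fell into 2 sets that did not overlap in any library. H2-K1, H2-D1, B2m, Tapbp and Psmb10 had 77 to 1165 reads in each library. Tap1, Tap2, Nlrc5, Psmb8 and Psmb9 had 0 to 7. The first set passed edgeR's filter on low counts and was tested, and the second was not. A floor of 3 reads corresponded to 0.105 to 0.137 CPM, so that the second set lay around the floor in both groups. In bulk RNA, fewer cells with a transcript and less of it per cell cannot be told apart.

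**Figure D1:**
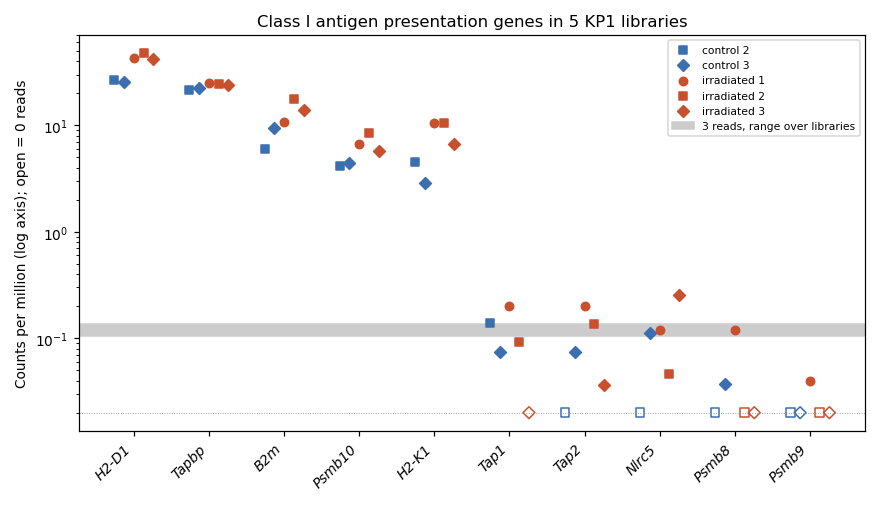
Level of the 10 members in each library, in CPM on a log axis. Blue marks the 2 control and red the 3 irradiated libraries, open symbols are 0 reads, and the grey band is the level of 3 reads; H2-D1, Tapbp, B2m, Psmb10 and H2-K1 lie far above the band, and the other 5 genes lie around or below it.

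The classical heavy chain genes carry the module that Nlrc5 and its partners bind, and so does B2m. Whether these sequences bear on the values that follow was not tested. RefSeq gave start sites for 8 of the 10 members on GRCm38.p6 (Tap2 and Nlrc5 were not in the table). For H2-D1, Tapbp, Psmb8 and Psmb9 the 250 bases before this start lay inside the gene as annotated for the read counts. The 250 bases before each start were searched on both strands for 4 short motifs. These were TGACG (the core of the X2 half-site, where CREB/ATF proteins bind), CCAAT (the Y box, bound by NF-Y), AANNGAAA (an interferon regulatory factor motif) and GGGGATTCC (a κB motif). None of the letters of one motif were shared with another in the windows shown. The H2-K1 window (chr17:34000348-34000583, minus strand) and the B2m window (chr2:122147437-122147685, plus strand) are printed up to the first base of an annotated transcript, with motif matches in capitals.
H2-K1: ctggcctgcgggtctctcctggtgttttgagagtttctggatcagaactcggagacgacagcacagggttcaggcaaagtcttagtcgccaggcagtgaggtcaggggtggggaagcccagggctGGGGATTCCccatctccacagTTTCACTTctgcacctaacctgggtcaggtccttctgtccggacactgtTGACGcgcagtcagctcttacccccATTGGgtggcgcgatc
B2m: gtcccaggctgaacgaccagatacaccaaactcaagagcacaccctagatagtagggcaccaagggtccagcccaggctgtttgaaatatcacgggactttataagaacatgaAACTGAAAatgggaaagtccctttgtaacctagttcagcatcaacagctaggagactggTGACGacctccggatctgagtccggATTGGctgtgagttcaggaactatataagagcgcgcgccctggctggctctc

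In H2-K1 the order along the strand was κB motif, interferon regulatory factor motif, X2 half-site and Y box. A second Y box lay nearer to the start, past the bases printed. H2-D1 held the same 4 motifs in the same order, and B2m the last 3 of them. Of all 32851 promoters in the table, 17.8% held the X2 half-site, 33.8% the Y box, 21.3% the interferon regulatory factor motif and 0.213% the κB motif, and 1.08% held the first 3 together. Tap1 and Psmb9, which are read in opposite directions from one shared stretch, also held an X2 half-site and a Y box, a pair found in 6.12% of promoters, but neither of the other motifs. The windows of Psmb8 and Psmb10 held none of the 4, and that of Tapbp held 2 Y boxes alone. Sequence before the first annotated base of Psmb8 and Tapbp was not searched. A match is a description of letters and not evidence of binding.

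The X2 half-site, with 8 bases on each side, is shown for 3 expressed genes and for the almost silent Tap1, with TGACG in capitals. The H2-K1 site lies at chr17:34000376-34000396 on the minus strand. Those of H2-D1 (chr17:35262985-35263005), B2m (chr2:122147601-122147621) and Tap1 (chr17:34187462-34187482) lie on the plus strand.
H2-K1: gacactgtTGACGcgcagtca
H2-D1: gacactgaTGACGcgctggca
B2m: gagactggTGACGacctccgg
Tap1: gagacaggTGACGacagaggg

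H2-D1, one of the classical heavy chains (chr17:35262730-35267499, plus strand, GRCm38), was the most abundant member by reads. It had 26.9 and 25.4 CPM in control replicates 2 and 3, and 43.1, 47.8 and 42.4 CPM in irradiated replicates 1, 2 and 3. The groups did not overlap, and the spread within each group was small beside the gap between them. H2-D1 rose 1.70-fold, a log2 fold change of 0.76 (SE 0.15, 95% confidence interval 0.41 to 1.12), with an adjusted p of 0.0131 in edgeR's quasi-likelihood test over 14106 genes. The control mean was 26.2 ± 1.02 CPM (SD, n = 2) and the irradiated mean 44.4 ± 2.92 CPM (SD, n = 3).

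H2-K1, the other classical heavy chain gene (chr17:33996017-34000347, minus strand), was lower. Its level was 4.52 and 2.89 CPM in the control libraries, and 10.5, 10.6 and 6.70 CPM in irradiated replicates 1, 2 and 3. Irradiated replicate 3 was nearer to the controls than the other irradiated libraries, but the groups did not overlap. H2-K1 rose 2.49-fold (log2 fold change 1.32, SE 0.34, interval 0.54 to 2.10) with an adjusted p of 0.0270 by edgeR.

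B2m (chr2:122147686-122153083, plus strand), the light chain that every class I heavy chain needs, had 5.95 and 9.42 CPM in control libraries and 10.7, 17.5 and 13.9 CPM in irradiated ones. The lowest irradiated library lay close to control replicate 3. The fitted difference was 0.87 on the log2 scale (SE 0.30, interval 0.18 to 1.56), and the adjusted p by edgeR was 0.0653, short of the threshold of 0.05. B2m passed it in 4 of 17 alternative analyses (adjusted p from 0.0162 to 0.465 over all of them), among them DESeq2 (adjusted p = 0.0295) and edgeR without control replicate 3 (log2 fold change 1.26, adjusted p = 0.0315).

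Psmb10, the immunoproteasome subunit also called MECL-1 (chr8:105935735-105938444, minus strand), had 4.17 and 4.47 CPM in control libraries and 6.61, 8.50 and 5.79 CPM in irradiated ones. The log2 difference of 0.69 (SE 0.30, interval 0.01 to 1.37) had an adjusted p of 0.117. Tapbp, the gene of tapasin (chr17:33915899-33929292, plus strand), had 21.6 and 22.4 CPM in control and 25.1, 24.3 and 23.9 CPM in irradiated libraries. Its libraries differed little within each group, and its log2 difference was 0.15 (SE 0.16, interval −0.22 to 0.52, adjusted p = 0.524).

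Of the 10 members, then, 2 were called higher at an adjusted p under 0.05, 0 were called lower, 3 were tested without a call and 5 were not tested. At an unadjusted p under 0.05 the count lower was also 0, and DESeq2 and limma called 0 lower as well. DESeq2 called 3 members, H2-K1, H2-D1 and B2m, beside 33.4% of all genes in either direction, and limma on log2(TPM + 1) called 0 beside 23.9%, of which 693 genes were higher and 2678 lower, against 1786 and 1827 by edgeR. In the same comparison 12.7% of all 14106 tested genes were called higher and 13% lower, so that calls were common. No member passed the stricter rule of a log2 fold change above 1.5 or below −1.5 with an adjusted p under 0.05, which 1.63% of tested genes passed upward and 1.9% downward. In CPM, each of the 5 tested members was higher in every irradiated library than in either control, which held for 30.1% of the tested genes. For H2-K1, H2-D1 and Psmb10 this held in gene TPM too, for which the share over all tested genes was not counted. On the single coding transcript of Psmb10 the groups overlapped, at 4.68 and 2.34 TPM in control and 3.71, 4.66 and 2.5 in irradiated libraries. For B2m the groups overlapped in TPM, at 30.7 in control replicate 3 and 28.5 in irradiated replicate 1. Tapbp also overlapped, at 20.3 and 17.9 TPM in the same libraries. The median log2 fold change of the 5 tested members was 0.76, beside 0.02 over all tested genes.

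The length of the sampled transcripts moved with these values. Gene length was the mean over a gene's transcripts, weighted by TPM, and was 681 bases for Psmb10. When tested genes were cut into 10 bins by this length, the median log2 fold change was 0.77 in the bin of the shortest transcripts, which holds B2m and Psmb10. It was 0.55 in the next bin (1020 to 1409 bases), where the single coding transcript of Psmb10, of 1311 bases, would fall. It was 0.41 in the bin with H2-K1 (1409 to 1757 bases), 0.28 in the bin with H2-D1 and Tapbp (1757 to 2118 bases), and −0.78 in that of the longest. With an offset fitted to transcript length in each library, H2-K1 was at a log2 fold change of 0.91 (interval 0.14 to 1.69, adjusted p = 0.118) and H2-D1 at 0.54 (interval 0.21 to 0.87, adjusted p = 0.0567). B2m was at 0.27 (adjusted p = 0.465), Psmb10 at 0.06 (adjusted p = 0.906) and Tapbp at −0.02 (adjusted p = 0.934). With the offset 0 of the 10 members were called and 2 had an unadjusted p under 0.05, while 3.79% of all tested genes were called higher. The intervals of both heavy chain genes stayed above 0, and those of the other 3 genes included 0.

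**Figure D2:**
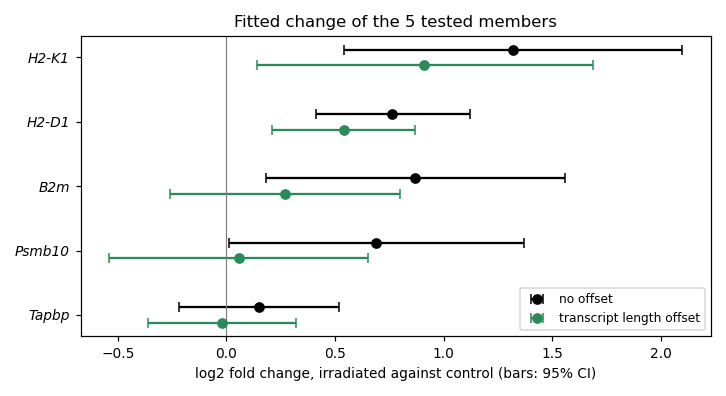
Fitted log2 fold change of the 5 tested members, irradiated against control, with 95% confidence intervals, without an offset (black) and with the transcript length offset (green). H2-K1 (1.32 and 0.91) and H2-D1 (0.76 and 0.54) keep intervals above 0 in both fits, whereas B2m, Psmb10 and Tapbp move to or near 0 with the offset.

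Single libraries also mattered. Without control replicate 2, the adjusted p by edgeR was 0.0606 for H2-K1 and 0.0645 for H2-D1, and without irradiated replicate 2 it was 0.0863 and 0.0506. H2-K1 also missed the threshold without control replicate 3 (adjusted p = 0.0732) and without irradiated replicate 1 (adjusted p = 0.0694). Both log2 fold changes stayed positive in each of these fits, between 1.05 and 1.70 for H2-K1 and between 0.71 and 0.82 for H2-D1.

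Levels of different genes can be set side by side only per transcript length, as TPM. In the control libraries H2-D1 was at 27.4 and 29.5 TPM, B2m at 18.7 and 30.7, Tapbp at 20 and 20.3, Psmb10 at 11.6 and 24.1, and H2-K1 at 6.39 and 4.10. B2m overlapped with its neighbours H2-D1 and Tapbp in this order, Tapbp with Psmb10, and H2-K1 lay apart at the low end. This order is of gene totals, which for Psmb10 include noncoding transcripts. The single coding transcript of Psmb10 had 4.68 and 2.34 TPM, below H2-K1 in both control libraries. In irradiated libraries H2-D1 had 37.4 to 41.6 TPM and B2m 28.5 to 44.7, again overlapping. H2-D1 stood at the 71.9 and 72.8 percentile of protein-coding genes by TPM in control libraries and at the 80.7 to 82.8 percentile in irradiated ones. H2-K1 stood at the 54.3 and 51.1 percentile, and at 57.4 to 63.2 after irradiation.

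How reads were split between similar sequences limits these values. H2-K1 shares 12.3% of its 31-base words with H2-D1, and 75.8% of them occur in no other gene, against 73.2% for H2-D1 and 100% for B2m and Psmb10. Words were pooled over all annotated transcripts of a gene, retained introns included, so these shares do not describe coding transcripts alone. Within H2-K1 all 129 reads of control replicate 2 were assigned to a coding transcript of 1570 bases, while 75.9 of the 77 reads of control replicate 3 went to another coding transcript, of 1605 bases. Psmb10 was less clearly a coding signal. Only 63.5% and 28.7% of its reads in the control libraries and 37.9%, 38.8% and 27.9% in the irradiated libraries were assigned to its single coding transcript, and retained-intron transcripts took 36.5% to 64.4%. Equal totals of 119 reads thus gave 11.6 and 24.1 TPM in the control libraries.

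The peptide transporter genes were close to silent. Tap1 (chr17:34187553-34197225, plus strand) had 4 and 2 reads in control cells, followed by 5, 2 and 0 in irradiated replicates 1, 2 and 3. Tap2 (chr17:34203527-34216321, plus strand) had 0 and 2 reads, and 5, 3 and 1. All 6 control reads of Tap1 and both control reads of Tap2 were assigned to transcripts that retain an intron, and reads on coding transcripts came almost wholly from irradiated replicate 1. Summed over a group, Tap1 had 6 reads among 57468783 in control and 7 among 72899458 in irradiated cells, which is 0.104 and 0.0960 CPM before TMM scaling, with exact Poisson limits that cover counting error only of at most 0.227 and 0.198. No fold is given at this depth.

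Psmb8 (LMP7, chr17:34197721-34201454, plus strand) had 0 and 1 reads in control and 3, 0 and 0 in irradiated libraries. Psmb9 (LMP2, chr17:34181987-34187764, minus strand) had 1 read in all, in irradiated replicate 1 and on a retained-intron transcript. Nlrc5 (chr8:94434356-94527272, plus strand), which regulates several of the other members, had 0 and 3 reads in control and 3, 1 and 7 in irradiated libraries. Its 2 longest coding transcripts, of 6945 and 7578 bases, had 0 reads in every library. The 0.944 TPM listed for Nlrc5 in irradiated replicate 2 came from 1 read on a noncoding transcript of 346 bases, and its TPM is not used further. The upper Poisson limit for Nlrc5 was 0.153 CPM in control and 0.270 in irradiated cells, before TMM scaling, so a low level of the transactivator, or a change within these limits, was not detectable at this depth.

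Psmb9, Tap1, Psmb8 and Tap2 are neighbours within 34.3 kb of the class II region, and the annotated ends of Psmb9 and Tap1 overlap by 212 bases. Their surroundings were examined after these values had been seen. The 4 genes belonged to a run of 13 consecutive protein-coding genes, from H2-DMb2 to Btnl1 over 243 kb (chr17:34143307-34386028), each with at most 5 reads in every library. Such near-zero counts were found for 29.1% of all 21830 protein-coding genes. The genes that bound the run were low as well, with 5 to 50 reads for H2-DMa before it and 0 to 13 for BC051142 after it. On the H2-DMa side, Brd2, with its start 64.9 kb before that of Tap1, had 10517 to 13696 reads. Rxrb, with its start 156 kb before, had 2712 to 4387. H2-K1 lies 182 kb before Psmb9, outside the run, and H2-D1 lies 1050 kb beyond Tap2.

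**Figure D3:**
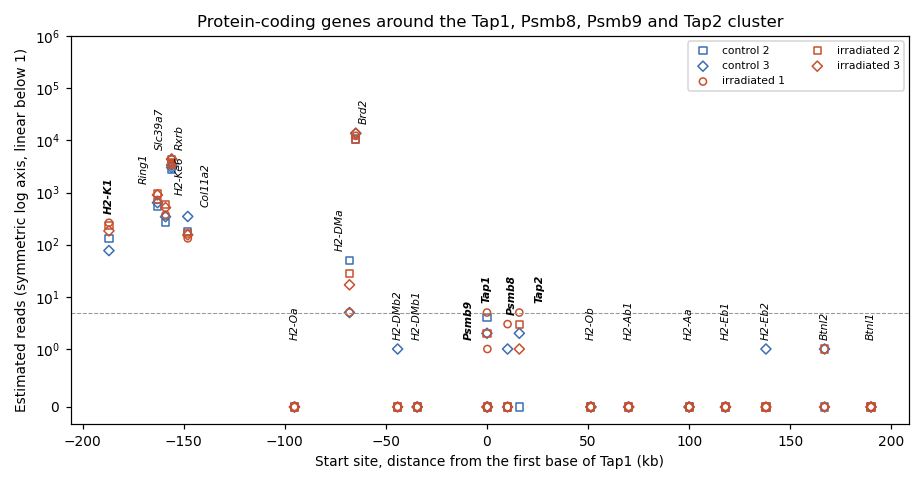
Estimated reads in each library (symmetric log axis) of protein-coding genes around Tap1, placed by the distance of their start from the first base of Tap1 in kb. Members are in bold and the dashed line marks 5 reads; from H2-DMb2 to Btnl1 every gene lies at or below the line in every library, while Brd2 and H2-K1 on the left are expressed.

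The constitutive counterparts of the immunoproteasome subunits were abundant. Psmb5, replaced by Psmb8, had 588 and 394 reads in control and 785, 817 and 872 in irradiated libraries. Psmb8 reads, counted at no less than the floor of 3 and not scaled for length, amounted to at most 0.761% of those of Psmb5 in any library. Psmb6, replaced by Psmb9, had 2712 and 1862 reads and 3218, 3096 and 2697, and the corresponding limit for Psmb9 was 0.161%. Per length, the TPM of Psmb10 was 5.14% and 11.4% of that of Psmb7 in control and 8.58%, 9.92% and 8.32% in irradiated libraries, overlapping between groups. The log2 ratio of Psmb10 to Psmb7 in TPM was −3.71 ± 0.81 (SD, n = 2) in control and −3.49 ± 0.14 (SD, n = 3) in irradiated cells. The difference of 0.22 had a two-sided exact permutation p of 0.8, where 0.1 is the smallest that 2 against 3 libraries can give; the other 2 ratios were at the floor and were not tested, so no adjustment over ratios was made.

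**Figure D4:**
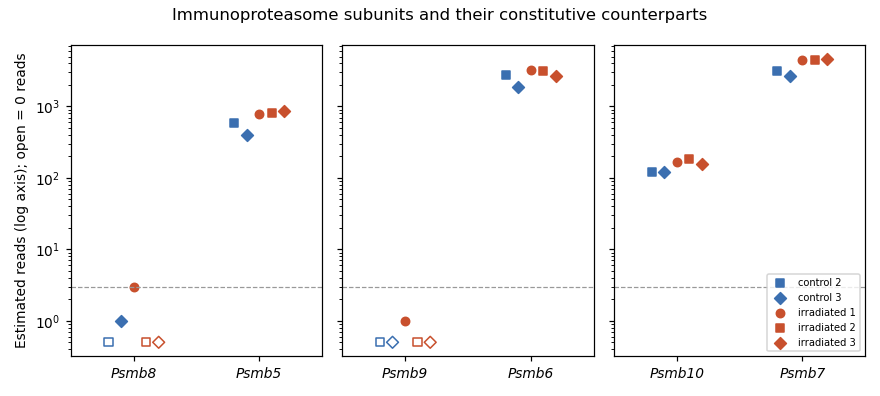
Estimated reads per library (log axis) of each immunoproteasome subunit beside the constitutive subunit it replaces, in control (blue) and irradiated (red) libraries, with open symbols for 0 reads and a dashed line at 3 reads. Psmb8 and Psmb9 have at most 3 reads, Psmb10 has 119 to 186, and Psmb5, Psmb6 and Psmb7 have 394 to 4634.

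Genes of 9 related lists were read in the same fit. Of the 91 tested, 19 (20.9%) were called in either direction by edgeR, beside 25.6% of all tested genes. The counts by DESeq2 and by limma on log2(TPM + 1) given below stand beside 33.4% and 23.9% of all genes. limma called 693 of all genes higher and 2678 lower. The length offset left 4 of the 19 edgeR calls, Bcap31, Pdia3, H2-T24 and Rbbp4, and turned the direction of 2. The replicate block left 7, and block and offset together left 0 and kept the direction of 16. Leaving out control replicate 2 left 1 call, Psmb5, leaving out irradiated replicate 2 left 6 and irradiated replicate 1 left 9, while 18 remained without control replicate 3 or irradiated replicate 3. The direction of all 19 was kept in each of these 5 leave-one-out fits.

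Of the 8 constitutive proteasome genes, activators and assembly factors listed, 5 rose, 1 fell and 2 were not called. Psmb7 rose (log2 fold change 0.81, adjusted p = 0.0112), as did Psmb5 (0.92, adjusted p = 0.0170), whereas Psmb6 was at 0.57 (adjusted p = 0.0739). The genes of the PA28 activator, Psme1 (1.01, adjusted p = 0.0115) and Psme2 (0.99, adjusted p = 0.0171), rose too, as did the assembly factor Pomp (1.19, adjusted p = 0.0188). Psme4, the gene of another activator, fell by 0.59 on the log2 scale (adjusted p = 0.0364) and was at 0.10 with the length offset. All these p values are from edgeR. The list has short transcripts, with a median of 1013 bases against 2502 over tested genes, and its median log2 fold change went from 0.86 to 0.26 with the length offset, when 0 of its genes were called and 2 had an unadjusted p under 0.05. DESeq2 without the offset called 7.

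Genes for peptide trimming and loading were all expressed where found (14 of 15 symbols, all tested). Of these, 3 rose, 3 fell and 8 were not called, with a median log2 fold change of −0.18. Bcap31, which escorts proteins out of the endoplasmic reticulum, rose by 1.22 (adjusted p = 0.0119), from 17.2 and 24.5 CPM to 51.1, 56.7 and 37.9. Pdia3, the disulfide isomerase ERp57 of the loading complex, rose by 0.63 (adjusted p = 0.0262), and the aminopeptidase gene Lap3 by 0.49 (adjusted p = 0.0382). Lnpep (−0.85, adjusted p = 0.0116, but 0.19 with the length offset), Ide (−0.76, adjusted p = 0.0235) and Uggt1 (−0.67, adjusted p = 0.0455) fell. With the length offset Lap3 was at 0.21, Ide at −0.45 and Uggt1 at −0.06, none of them called. Bcap31 and Pdia3 were the genes of this list called with the length offset, at 0.70 (adjusted p = 0.0427) and 0.66 (adjusted p = 0.0341), by edgeR in both fits. The chaperone genes Calr (0.46, adjusted p = 0.0645) and Canx (−0.33, adjusted p = 0.145) and the trimming enzyme gene Erap1 (−0.50, adjusted p = 0.230) were not called by edgeR. DESeq2 without the offset called 9 genes of the list, 5 of them lower, with Calr among those called (adjusted p = 0.0132). On log2(TPM + 1) limma called 7, of which 6 were lower, as were most of its calls over all genes.

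Among 22 non-classical class I and class I-like genes, 9 were tested, 1 rose and 1 fell, and 4 had 0 reads in every library. H2-T23, the gene of Qa-1, had 3.08 and 2.63 CPM in control libraries and 7.97, 9.77 and 6.74 in irradiated ones. It rose by 1.51 on the log2 scale (SE 0.31, adjusted p = 0.0131 by edgeR), and was at 1.09 (adjusted p = 0.0556) with the length offset. H2-T24 fell from 18.7 and 9.12 CPM to 6.21, 3.97 and 4.37, a log2 fold change of −1.52 (SE 0.35, adjusted p = 0.0194), and was called with the offset as well (−1.68, adjusted p = 0.0390). H2-Q7, a Qa-2 gene, had 1.93 and 1.46 CPM and 0.239, 0.457 and 0.692 CPM (log2 difference −1.86, adjusted p = 0.0649). These genes resemble H2-K1 and H2-D1 in sequence, so that the split of reads between them is uncertain.

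Interferon genes and their targets bear on the members, since interferon-γ is the best known inducer of class I. Ifng and Ifnb1 had 0 reads in every library. Of 22 receptor and signalling genes, 18 were tested and 1 was called by edgeR. Ifngr1, the ligand-binding chain of the interferon-γ receptor, rose from 7.39 and 11.4 CPM to 21, 21.9 and 15.8, a log2 fold change of 1.05 (SE 0.26, adjusted p = 0.0249), and was at 0.86 (adjusted p = 0.0553) with the length offset. Jak1, a kinase gene of the receptor (−0.16, adjusted p = 0.505), and Irf1, a transcription factor gene (0.75, adjusted p = 0.147), were expressed without a call by edgeR. DESeq2 called 4 genes of this list, 1 of them lower, and limma on log2(TPM + 1) called 2, both lower.

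Of 30 interferon-stimulated genes, 15 were tested and 0 were called in either direction by edgeR with or without the length offset. Of all tested genes, 25.6% were called in either direction without the offset, and 3.79% were called higher with it. Standard errors in the list ran from 0.16 to 1.27 on the log2 scale. The count of 0 therefore does not show that genes with few reads were unchanged. At an unadjusted p under 0.05 the tests gave 2 without the offset and 1 with it. DESeq2 called 1, Ifi27, and limma 0. The other 15 did not pass the filter on low counts. Isg15, a ubiquitin-like protein gene that both interferon types induce, had 12 and 8 reads in control and 2, 0 and 3 in irradiated libraries and was not tested. The median log2 fold change of the tested genes was 0.41, beside 0.02 over all genes, and 0.10 with the offset.

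**Figure D5:**
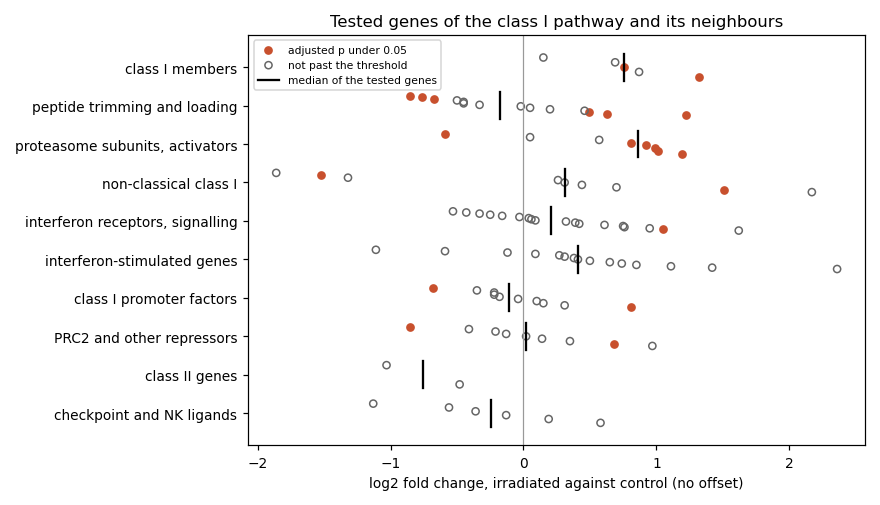
Log2 fold change of each tested gene, irradiated against control without an offset, for the class I members and 9 related gene lists. Filled red points had an adjusted p under 0.05, open points did not, and black bars are medians: 0.76 for the members, 0.86 for proteasome subunits and activators, −0.18 for trimming and loading, and 0.41 for interferon-stimulated genes, of which none is filled.

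Factors that act on class I promoters were all expressed. Of 10, 1 rose (Rfxap of the RFX complex, log2 fold change 0.81, adjusted p = 0.0494) and 1 fell (Creb1, −0.68, adjusted p = 0.0226), neither of them called with the offset. Rfx5, the DNA-binding RFX subunit, was at −0.35 (adjusted p = 0.179). Of 9 genes of Polycomb repressive complex 2 and other repressors, Rbbp4, which encodes a histone-binding subunit, rose by 0.68 (adjusted p = 0.0289) and by 1.09 with the offset (adjusted p = 0.0272). Dnmt1, the maintenance DNA methyltransferase gene, fell by 0.85 on the log2 scale (adjusted p = 0.0104) but was at −0.29 (adjusted p = 0.164) with the offset. Ezh2, the methyltransferase gene of the complex, had 225 to 270 CPM in control and 181 to 193 in irradiated libraries (log2 difference −0.41, adjusted p = 0.0723). All p values here are from edgeR.

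Class II genes, the other branch of antigen presentation, were mostly near 0: of 11, 6 had 0 reads in every library, 8 had at most 5, and 2 were tested. H2-DMa, which encodes a chain of the class II peptide exchange factor and was named after its values were seen, had 50 and 5 reads in control and 5, 28 and 17 in irradiated libraries. The count called was 0 by edgeR, DESeq2 and limma, and 0 also at an unadjusted p under 0.05. Ciita, the class II counterpart of Nlrc5, had 54 and 44 reads in control and 20, 22 and 22 in irradiated libraries (log2 difference −1.03, adjusted p = 0.166). Cd74, the invariant chain gene, had 0 and 0 reads, and 7, 3 and 0. Of 14 checkpoint and natural killer cell ligand genes, 6 were tested and 0 were called by edgeR, with 1 at an unadjusted p under 0.05. DESeq2 called that gene, Nectin2, and limma called 0. Cd274, the gene of PD-L1, had 4.27 and 2.36 CPM in control and 2.31, 2.24 and 2.22 CPM in irradiated libraries (log2 difference −0.56, adjusted p = 0.340).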

How the data were processed

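Bulk RNA of KP1 cells was sequenced in 2 control and 3 irradiated libraries (5 Gy, 24 h), grouped by their labels. The 6 single-cell samples of CD45+ leukocytes were not analysed here. Per the submitters' processing notes, reads were quantified with Salmon 0.8.2 on mm10. The annotation release is not given in the sources used here. The authors deposited estimated counts (expected counts that need not be whole) and TPM per transcript, with lengths and effective lengths in bases and no normalization between libraries.

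Of 113116 transcripts, 112762 (99.69%) matched GENCODE M21 on GRCm38 and were summed to 35056 genes, with counts rounded to whole numbers. Depth ranged from 21185956 to 31036317 reads a library. The main test was edgeR 4.0.16 in R 4.3.3 (filterByExpr, TMM, quasi-likelihood F test, Benjamini-Hochberg adjustment over 14106 genes). Standard errors are the absolute log2 fold change over the square root of F. The length and GC offsets came from a spline with 5 degrees of freedom in each library, which removes any trend, technical or biological. Other alternatives were DESeq2 1.42.0, RLE size factors, other filters, an effective length offset, a replicate block, limma 3.58.1 on log2(TPM + 1) and log2(TPM + 0.1), and each library left out. Where 1 control remained, it was assumed to vary like the irradiated libraries. The tests were tried on simulated counts. The floor of 3 reads and the Poisson limits cover counting error only. Promoters are RefSeq's. Other steps used scipy 1.17.1, matplotlib 3.10.9 and pandas 2.3.3 in Python 3.11.15.

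The members and the gene lists were chosen with earlier results of these data known. Genes were named by rule: the members, anchor genes of each list, and up to 4 genes a direction with the smallest p among those called in a list. Brd2, Rxrb, H2-DMb2, Btnl1, BC051142, Ifi27, Nectin2, Ifng, Ifnb1 and the individual markers of cell types were named after their values were seen. Nrdc was not found under that symbol. Some genes within the rule are not reported here.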

Additional observations from a re-analysis of the deposited data

How the results depend on the processing

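The direction of H2-K1, H2-D1, B2m and Psmb10 was positive under all 17 alternatives (the crossed block below not counted), while their calls were not stable: H2-K1 was called in 7 of them (log2 fold change 0.84 to 1.70, adjusted p 0.00215 to 0.244), H2-D1 in 10 (0.48 to 0.85, 0.000187 to 0.209), B2m in 4 (0.27 to 1.26, 0.0162 to 0.465) and Psmb10 and Tapbp in 0. Tapbp turned to −0.02 with the length offset, −0.14 with the GC offset and −0.04 with the replicate block and length offset together. The members called higher went from 2 to 0 with the length offset, with the replicate block, with both, and with limma on log2(TPM + 1) and on log2(TPM + 0.1), and lay between 0 and 2 with 1 library left out. They were 3, with B2m added, with DESeq2 and with no filter on low counts. With the GC offset and without control replicate 3 they were 2, B2m and H2-D1 in place of H2-K1 and H2-D1. No alternative called a member lower. The median log2 fold change of the 5 tested members, 0.76, went to 0.27 with the length offset, 0.57 with the GC offset, 0.94 with the effective length offset, 0.42 with block and length offset, and 0.59 with limma on log2(TPM + 1). The difference in the log2 ratio of Psmb10 to Psmb7, 0.22, turned to −0.14 on estimated reads, and lay between −0.35 (without control replicate 2) and 0.80 (without control replicate 3). For these changes the cause was not tested.

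Over all tested genes, 230 higher and 268 lower passed both thresholds, and 1786 and 1827 the adjusted p alone. The length offset gave 36 and 112, and 534 and 478. Without a filter on low counts 362 were higher past both thresholds. limma gave 76 higher and 345 lower past both thresholds, and 693 higher and 2678 lower at the adjusted p, with a pseudocount of 1. With 0.1 it gave 150 higher and 616 lower past both thresholds, and 721 higher and 2641 lower at the adjusted p. Leaving out 1 library gave 33 to 754 higher and 23 to 517 lower past both thresholds, and 95 to 2232 and 175 to 1977 at the adjusted p, in each case lowest without control replicate 2 and highest without control replicate 3. The labels do not say whether the replicate numbers pair libraries across the groups. The log2 ratios of replicate 2 to replicate 3 correlated at −0.196 between the groups. This gave no sign of pairing but cannot exclude it, since each group gave a single ratio per gene and libraries also differed in the transcripts sampled. The replicate block gave 187 higher and 114 lower past both thresholds, and 602 and 494 at the adjusted p, and with the length offset 0 and 2 by either rule. A block with the numbers crossed, chosen after the data were seen, gave 3026 higher and 2670 lower at the adjusted p. Tap1, Tap2, Nlrc5, Psmb8 and Psmb9 were limited by depth, since 3 reads decide whether they are seen at all.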
